A study of Bos taurus with 8 samples.

Results

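The kinesin motor family of bovine granulosa cells was compared between low and normal oxygen, and its members were taken as the rows of the value table whose platform gene symbol is KIF or KIFC followed by a digit. This gave 38 of 24415 transcript clusters, 1 for each of 38 genes. A further 2 rows join a kinesin symbol with another gene (*KIFC2* with *FOXH1*, *KIF20B* with *LOC782598*) and were kept apart. The family was read in 4 classes. The 7 mitotic kinesins (*KIF11*, *KIF15*, *KIF18A*, *KIF20A*, *KIF23*, *KIF2C* and *KIF4A*) are a list chosen with earlier results of these data known. The remaining genes were sorted by known role into 5 other kinesins of cell division, 16 transport kinesins and 10 others. The classes overlap in function, since *KIF2A* also works at spindle poles and *KIF3A* and *KIF3B* also serve cilia.

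Kinesins are motor proteins that use ATP to move along microtubules or to take them apart. One set builds and moves the mitotic spindle and closes the cell at cytokinesis, and its genes are known to be transcribed mainly in dividing cells. Another set carries vesicles, mitochondria and ciliary cargo in cells that do not divide, and most cells use some of these motors all the time. In the follicle, granulosa cells divide while the follicle grows and stop dividing when they luteinize. The roles named below were worked out mainly in human and mouse cells.

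The cells were bovine granulosa cells from small to medium follicles of abattoir ovaries, frozen, thawed and cultured on collagen without serum. Low oxygen samples (LOL 1 to 4) were held at 1% oxygen and normal oxygen samples (NOL 1 to 4) at 21% oxygen, in both cases for 48 h from day 6 until harvest on day 8, after a shared start at 21% oxygen. Both groups received FSH, IGF-1 and androstenedione throughout. Total RNA of each sample was measured on 1 array, and the sources do not say whether the 4 samples of an oxygen level were grown as independent cultures. The p-values therefore cover the spread among these arrays alone, and that spread may be technical.

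All values are log2 signals as the authors deposited them, and differences are LOL minus NOL. A gene passed the test where limma's adjusted p over all 24415 rows was under 0.05. The median signal was 4.12 to 4.18 in the LOL arrays and 4.06 to 4.08 in the NOL arrays. Arrays correlated across rows (no independent replicates) with an r of 0.993 to 0.996 within LOL, 0.995 to 0.996 within NOL and 0.973 to 0.978 between the groups. LOL 3 stood apart from the other arrays on principal component 2 (6.90% of the variance), so kinesin values that changed by over 1.5 times or lost or gained the call without it are given without it as well. Of 14 granulosa cell markers, 10 were lower and 1 was higher, against 20.5% of all rows in each direction. Their summed linear signal was 4097 to 4621 at LOL and 7796 to 8134 at NOL. Their median log2 signal was 6.78 at LOL and 8.09 at NOL. Smooth muscle and fibroblast markers were higher in 9 of 11 genes, against 20.5% of all rows. Their sum was 4787 to 4958 at LOL and 3219 to 3570 at NOL. Beside the 20.5% of all rows that were higher, 3 of 7 leukocyte markers (sum 88.4 to 104.0 at LOL and 78.1 to 85.9 at NOL), 2 of 8 oocyte markers (41.6 to 46.7 at LOL and 39.4 to 40.7 at NOL) and 2 of 6 endothelial markers (110.9 to 118.2 at LOL and 57.6 to 67.1 at NOL) were higher. Of the endothelial markers, *CLDN5* averaged 6.04 at LOL and 4.10 at NOL, *TEK* differed by 0.42, and *CDH5*, *VWF*, *KDR* and *PECAM1* did not pass. Of 3 theca markers, 1 was higher and 1 lower (371 to 390 at LOL and 178 to 231 at NOL). *INSL3*, by far the strongest of them, averaged 8.48 at LOL and 7.44 at NOL. *LHCGR* was lower (3.69 at LOL and 4.51 at NOL), and *CYP17A1* did not pass (3.35 at LOL and 3.38 at NOL). The median log2 signals of the leukocyte and oocyte markers were 3.64 and 2.43 at LOL and 3.40 and 2.28 at NOL. All 8 known hypoxia genes of a check list were higher at LOL. The part of these markers in the kinesin results was not tested. A fold whose lower group averages under a log2 signal of 4 is given as a lower bound ("at least"), since signals there are close to those of the leukocyte and oocyte markers. This wording refers to the low signal alone, and the spread among arrays can still put the fold below the value given. Such a lower bound applies to 16 of the 38 kinesins.

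Within the family, the 7 listed mitotic kinesins were lower at LOL, whereas the measured difference of every other kinesin was under 2-fold. Of the 38 genes, 20 passed the test (41.0% of all rows did). Of these, 16 were lower (42.1%, against 20.5% of all rows) and 4 were higher (10.5%, against 20.5% of all rows), and 18 did not pass the adjusted p. Lower by more than 2-fold were 6 genes (15.8%, against 2.65% of all rows), each of them from the list of 7. None was higher by more than 2-fold (2.22% of all rows). The arrays of the 2 groups did not overlap in 20 kinesins (39.4% of all rows), of which 15 were lower (20.3% of all rows) and 5 were higher (19.1% of all rows). Without the 7 mitotic kinesins, 9 of 31 were lower (29.0%) and 4 were higher (12.9%). Of the 5 other kinesins of cell division, 2 were lower (40%) and 3 did not pass. The contrast is therefore stated for the listed 7 alone, a list chosen with earlier results known. It does not describe cell division kinesins at large, since 3 of these 5 average under a log2 signal of 4 in the lower group. *CENPE*, a division kinesin outside the KIF naming, was lower as well (measured log2 difference -1.88). The median difference was -1.38 in the mitotic class, -0.12 in the other division kinesins, 0.054 in the transport class and 0.083 in the others, beside 0.060 over all rows. The sign of the transport median turned to -0.011 when each array was centred on its median, and the median of all rows then was -0.005.

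**Figure D1:**
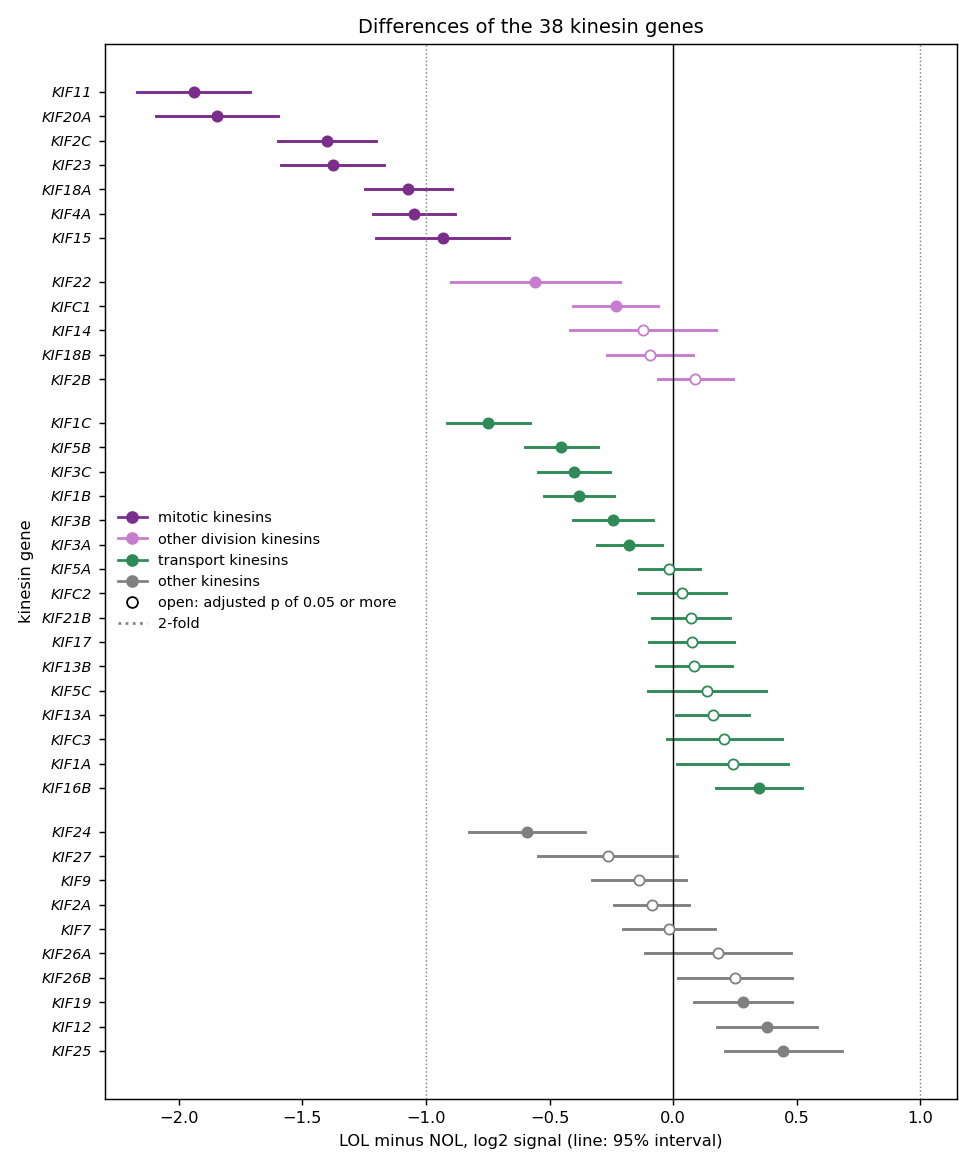
LOL minus NOL difference of each of the 38 kinesins on the log2 scale, with 95% intervals from limma (n = 4 arrays per group). Filled points passed the adjusted p of 0.05 over all rows, and the dotted lines mark 2-fold. The 7 mitotic kinesins lie between -1.94 and -0.93, whereas the 16 transport kinesins lie between -0.75 and 0.35.

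The motors that hold the spindle poles apart were lower at LOL. *KIF11*, which slides antiparallel microtubules apart and so separates the spindle poles, had signals of 3.62, 3.82, 3.40 and 3.86 in LOL 1 to 4, against 5.69, 5.50, 5.64 and 5.63 in NOL 1 to 4. The highest LOL array lay 1.64 below the lowest NOL array, and the NOL arrays lay close together. *KIF11* was at least 3.84-fold lower at LOL (log2 difference -1.94, standard error 0.10, adjusted p = 4.2e-07 by limma). *KIF15*, which bundles spindle microtubules and can stand in for *KIF11*, had signals of 2.74, 2.90, 2.72 and 3.0 in the LOL arrays, against 3.72, 3.60, 3.64 and 4.13 in the NOL arrays. The groups did not overlap, and NOL 4 was the highest NOL array. *KIF15* was at least 1.91-fold lower (log2 difference -0.93, standard error 0.12, adjusted p = 1.5e-04 by limma) and was the only mitotic kinesin whose measured difference was under 2-fold. Under quantile normalization its difference was -1.02, past 2-fold. The RNA comes from whole cultures, so fewer dividing cells and less transcript per cell cannot be told apart in these values.

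**Figure D2:**
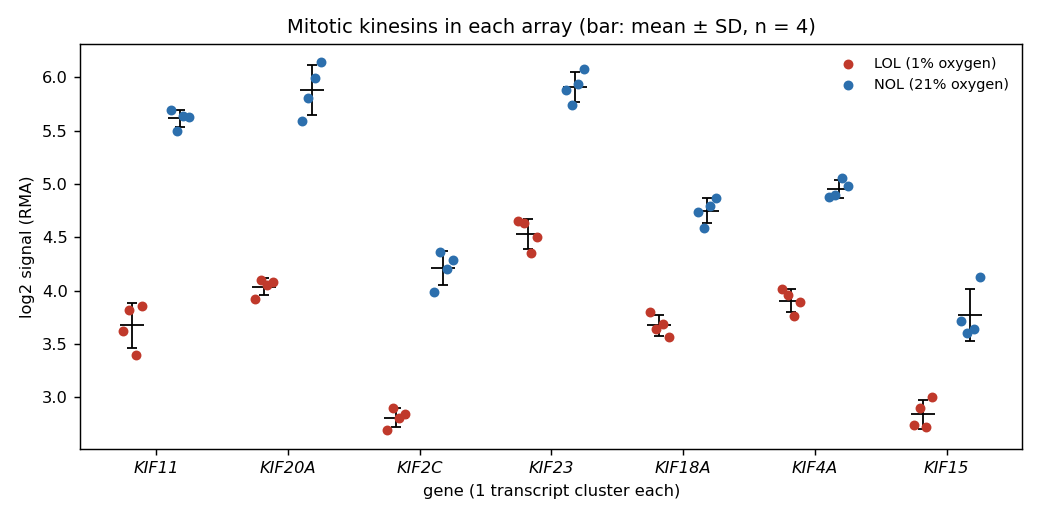
Log2 signal of the 7 mitotic kinesins in each array, with LOL arrays left of NOL arrays and the mean ± SD (n = 4) as a bar. The groups do not overlap in any of the 7 genes, and the gap is widest in *KIF11*.

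The motors that act on chromosomes and kinetochores were lower as well. *KIF2C*, which takes microtubules apart at centromeres and so helps to correct wrong attachments, had 2.69, 2.90, 2.81 and 2.84 in the LOL arrays, against 3.99, 4.36, 4.20 and 4.29 in the NOL arrays. All LOL signals lay between the medians of the oocyte and leukocyte markers, and the fall was at least 2.64-fold (log2 difference -1.40, standard error 0.088, adjusted p = 1.2e-06 by limma). *KIF18A*, which dampens the swinging of chromosomes at the metaphase plate, had 3.80, 3.64, 3.69 and 3.57 at LOL, against 4.74, 4.59, 4.79 and 4.87 at NOL. It was at least 2.10-fold lower (log2 difference -1.07, standard error 0.078, adjusted p = 3.1e-06 by limma). *CENPE*, the kinetochore kinesin outside the KIF naming, was at least 3.67-fold lower, at 2.89 to 3.15 in the LOL arrays and 4.78 to 5.06 in the NOL arrays (measured log2 difference -1.88, adjusted p = 2.3e-07).

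The motors of the spindle midzone and of cytokinesis followed. *KIF20A*, which brings the chromosomal passenger complex to the midzone, had 3.92, 4.10, 4.05 and 4.08 in the LOL arrays, against 5.59, 5.81, 5.99 and 6.14 in the NOL arrays. The LOL arrays lay close together, whereas the NOL arrays were more spread, and *KIF20A* was 3.59-fold lower (log2 SE 0.11, adjusted p = 9.2e-07 by limma). *KIF23*, the motor of the centralspindlin complex, had 4.65, 4.63, 4.35 and 4.50 at LOL, against 5.88, 5.74, 5.94 and 6.08 at NOL. It was 2.60-fold lower (standard error 0.093, adjusted p = 1.9e-06). *KIF4A*, a chromokinesin that limits microtubule overlap at the midzone, had 4.02, 3.96, 3.76 and 3.89 at LOL, against 4.88, 4.90, 5.06 and 4.98 at NOL. It was at least 2.07-fold lower (standard error 0.074, adjusted p = 2.6e-06), and without LOL 3 its log2 difference of -0.998 was under the fold threshold.

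The measured differences of the 7 mitotic kinesins spanned -1.94 to -0.93. All but *KIF20A* and *KIF23* averaged under a log2 signal of 4 at LOL, so their falls are lower bounds and no order was read from them. The 95% interval of *KIF20A* (-2.09 to -1.60) lay just below that of *KIF23* (-1.59 to -1.17), and this difference between genes was not tested. Among arrays of the same group, LOL 3 had the lowest LOL signal in 4 of the 7 genes and NOL 2 the lowest NOL signal in 4, while NOL 4 had the highest NOL signal in 4.

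The 5 other kinesins of cell division had small measured differences (-0.56 to 0.090), which for *KIF22*, *KIF14* and *KIF2B* rest on low signals. *KIF22*, a chromokinesin that pushes chromosome arms away from the poles, had 3.41, 2.95, 3.58 and 3.69 in the LOL arrays, against 3.79, 3.92, 3.96 and 4.19 in the NOL arrays. The groups were separated by 0.10, and *KIF22* was at least 1.47-fold lower (log2 SE 0.15, adjusted p = 0.015 by limma). With an analysis of variance without moderation its adjusted p was 0.0587. *KIFC1*, a minus-end motor that focuses spindle poles, had 4.30, 4.19, 4.38 and 4.31 at LOL, against 4.59, 4.36, 4.65 and 4.51 at NOL. These groups overlapped, and the log2 difference of -0.23 passed narrowly (standard error 0.077, adjusted p = 0.0356). Leaving out any of LOL 1, LOL 2, LOL 4, NOL 1, NOL 3 or NOL 4 brought the adjusted p of *KIFC1* to 0.0613 to 0.0948, and analysis of variance and trended moderation gave 0.0534 and 0.0517.

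The cytokinesis kinesin *KIF14*, the astral microtubule regulator *KIF18B* and the kinetochore kinesin *KIF2B* did not pass. *KIF14* had 2.80, 3.40, 3.43 and 3.39 in the LOL arrays and 3.34, 3.32, 3.43 and 3.42 in the NOL arrays. LOL 1 was the only array outside a narrow band, and the log2 difference was -0.12 with it (adjusted p = 0.493) and 0.029 without it (adjusted p = 0.752). *KIF18B* and *KIF2B* had differences of -0.095 and 0.090, with 95% intervals of -0.27 to 0.080 and -0.063 to 0.24. All signals of *KIF2B* were under a log2 value of 3. The row that joins *KIF20B* with *LOC782598* had 3.60, 3.51, 2.58 and 2.97 at LOL, against 4.11, 3.83, 4.57 and 4.50 at NOL. Its log2 difference was -1.09 (adjusted p = 0.0045), or -0.89 without LOL 3 (adjusted p = 0.0081), but it cannot be given to either gene. Of the 5 other division kinesins, 3 average under 4 in the lower group.

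Of the 16 transport kinesins, 6 were lower (37.5%) and 1 was higher (6.25%), against 20.5% of all rows in each direction. The other 9 did not pass, and none reached 2-fold. *KIF1C*, which carries Golgi and integrin vesicles, changed most, with 5.14, 5.34, 5.09 and 5.25 in the LOL arrays, against 5.92, 5.98, 6.05 and 5.86 in the NOL arrays. It was 1.68-fold lower (log2 SE 0.074, adjusted p = 2.5e-05 by limma), and its interval of -0.91 to -0.58 met the measured intervals of *KIF18A*, *KIF4A* and *KIF15* but not those of *KIF11*, *KIF20A*, *KIF2C* and *KIF23*. *KIF5B*, the conventional kinesin that most tissues use, had 8.74, 8.74, 8.64 and 8.87 at LOL, against 9.25, 9.15, 9.24 and 9.16 at NOL. All LOL arrays were below all NOL arrays by a small margin, and the fall was 1.37-fold (log2 SE 0.066, adjusted p = 3.4e-04). *KIF1B*, which carries mitochondria and vesicles, had 6.55, 6.42, 6.55 and 6.63 at LOL, against 6.87, 6.89, 6.94 and 6.97 at NOL, and was 1.30-fold lower (standard error 0.064, adjusted p = 8.7e-04).

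Of the kinesin-2 motors, 3 were lower by small amounts and *KIF17* did not pass. *KIF3A* and *KIF3B* pair with the adaptor KAP3 to carry cargo into cilia. *KIF3A* had 5.90, 5.98, 5.82 and 5.90 in the LOL arrays, against 6.03, 6.06, 6.12 and 6.10 in the NOL arrays (log2 difference -0.18, adjusted p = 0.0356). *KIF3B* had 5.48, 5.55, 5.38 and 5.44 at LOL, against 5.75, 5.59, 5.64 and 5.84 at NOL (log2 difference -0.24, adjusted p = 0.023). Neither group pair overlapped, but both calls were fragile. *KIF3A* passed in only 2 of the 8 fits that leave out 1 array and was lost without LOL 1, LOL 3, LOL 4, NOL 2, NOL 3 or NOL 4 (adjusted p up to 0.0856). *KIF3B* passed in 4 of these and was lost without LOL 3, LOL 4, NOL 1 or NOL 4 (adjusted p up to 0.0643). Quantile normalization gave adjusted p-values of 0.266 for *KIF3A* and 0.0864 for *KIF3B*. *KIFAP3*, which encodes KAP3, had 6.72 to 6.91 at LOL and 6.58 to 6.72 at NOL and did not pass (log2 difference 0.15, adjusted p = 0.0962), but did under quantile normalization (0.20, adjusted p = 0.0377) and with low rows left out (adjusted p = 0.0445). *KIF3C*, which can pair with *KIF3A*, was 1.32-fold lower, at 4.81 to 5.02 in the LOL arrays and 5.30 to 5.40 in the NOL arrays (adjusted p = 7.0e-04). *KIF17*, which works without KAP3, had a difference of 0.075 and did not pass (adjusted p = 0.474).

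Among the transport kinesins, *KIF16B* alone was higher at LOL. It carries early endosomes and had 5.72, 5.90, 5.74 and 5.78 in the LOL arrays, against 5.61, 5.43, 5.31 and 5.40 in the NOL arrays. The rise was 1.27-fold (log2 SE 0.078, adjusted p = 0.0050 by limma), and it passed in all 15 alternative fits that test against no difference. *KIF13A*, another motor of endosomes, had 5.45 to 5.61 at LOL and 5.28 to 5.44 at NOL. Its groups did not overlap, but the log2 difference of 0.16 did not pass (adjusted p = 0.0796), although it did under quantile normalization (0.23, adjusted p = 0.0143) and with low rows left out (adjusted p = 0.0349). *KIFC3*, a minus-end motor of adherens junctions, had a difference of 0.21 (adjusted p = 0.141), or 0.14 without LOL 3, and passed only without LOL 1, at 0.29 (adjusted p = 0.0321). The neuronal motors *KIF1A*, *KIF5A*, *KIF5C*, *KIF21B* and *KIFC2* and the membrane traffic motor *KIF13B* had differences of -0.015 to 0.24 and did not pass. Without LOL 3 the difference was 0.16 for *KIF1A*, -0.029 for *KIF5A*, 0.085 for *KIF5C*, 0.064 for *KIFC2* and 0.043 for *KIF13B*. Their 95% intervals lay within -0.14 to 0.47, and *KIF1A*, *KIF5A* and *KIF5C* averaged under 4 in both groups. The row that joins *KIFC2* with *FOXH1* did not pass either (log2 difference 0.17, adjusted p = 0.224).

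**Figure D3:**
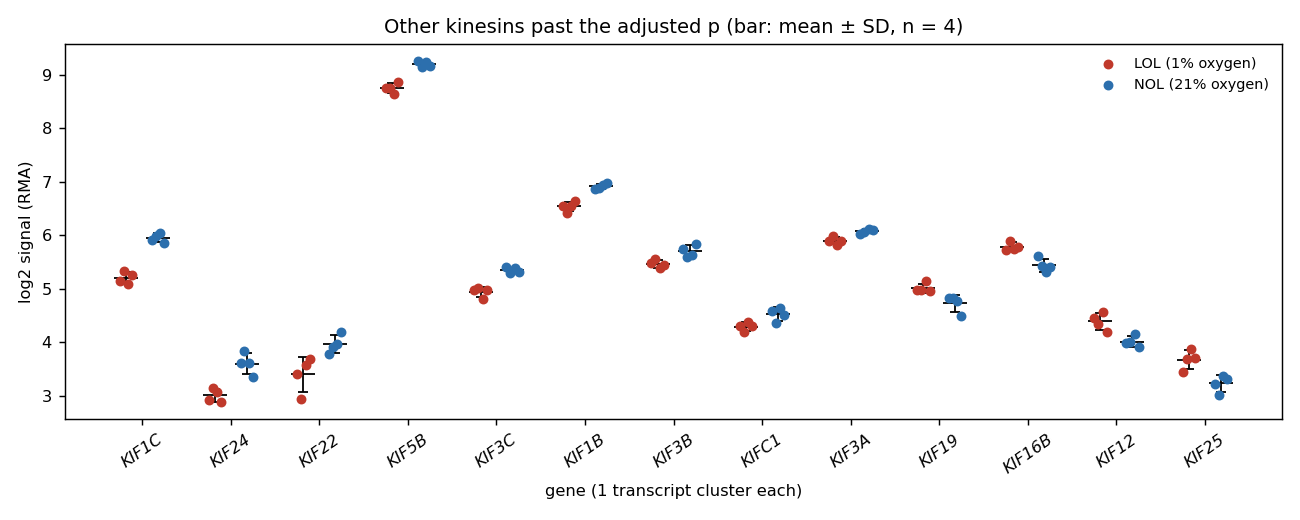
Log2 signal in each array of the 13 kinesins outside the mitotic class that passed the adjusted p, with LOL arrays left of NOL arrays and the mean ± SD (n = 4) as a bar. Genes run from the largest fall (*KIF1C*) to the largest rise (*KIF25*), and the groups overlap only in *KIFC1*.

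Among the 10 remaining kinesins, 1 was lower (10%), 3 were higher (30%) and 6 did not pass, beside 20.5% of all rows in each direction. *KIF24*, which holds back the assembly of cilia at the mother centriole, had 2.92, 3.15, 3.08 and 2.89 in the LOL arrays, against 3.61, 3.83, 3.61 and 3.35 in the NOL arrays. It was at least 1.51-fold lower (log2 SE 0.10, adjusted p = 0.0012 by limma). The rises were small. *KIF25* had 3.45, 3.68, 3.88 and 3.70 at LOL, against 3.22, 3.02, 3.38 and 3.31 at NOL (log2 difference 0.45, adjusted p = 0.0070), all close to the level of the leukocyte markers. The epithelial kinesin *KIF12* had 4.46, 4.35, 4.57 and 4.20 at LOL, against 3.98, 4.01, 4.16 and 3.91 at NOL (1.30-fold higher, adjusted p = 0.0071). *KIF19*, which shortens microtubules at the tips of cilia, had 4.98, 4.98, 5.14 and 4.95 at LOL, against 4.83, 4.83, 4.77 and 4.49 at NOL (1.22-fold higher, adjusted p = 0.0276). The call of *KIF19* was lost without LOL 3 (log2 difference 0.24, adjusted p = 0.0679), without NOL 4 (0.20, adjusted p = 0.0537) and when each array was centred on its median (0.22, adjusted p = 0.0651). Analysis of variance gave it an adjusted p of 0.0572.

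The microtubule depolymerase *KIF2A*, a relative of *KIF2C*, had 7.75, 7.88, 7.84 and 7.91 in the LOL arrays, against 8.02, 7.96, 7.95 and 7.80 in the NOL arrays. Its groups overlapped and it did not pass (log2 difference -0.088, 95% interval -0.24 to 0.065, adjusted p = 0.34). That interval lay above the one of *KIF2C* (-1.60 to -1.20), of the same subfamily. *KIF27* had 5.50, 5.48, 4.99 and 5.52 at LOL, against 5.72, 5.79, 5.55 and 5.49 at NOL (log2 difference -0.27, adjusted p = 0.121), with LOL 3 far below the other arrays, and without LOL 3 the difference was -0.14 (adjusted p = 0.236). Its relative *KIF7*, which acts in Hedgehog signaling at the cilium tip, was at -0.018 (adjusted p = 0.885), and at -0.075 without LOL 3. *KIF9*, *KIF26A* and *KIF26B* had differences of -0.14, 0.18 and 0.25 and did not pass (adjusted p = 0.23, 0.302 and 0.0789). Without LOL 3 *KIF26A* was at 0.063. *KIF26B* passed only without LOL 3, at 0.31 (adjusted p = 0.0424), and *KIF9* only under quantile normalization (adjusted p = 0.0418).

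The partners of the mitotic kinesins had lower signals too. Of 29 genes of the spindle, the kinetochore and cytokinesis with a row of their own, 28 were lower (against 20.5% of all rows). *CENPE*, itself a kinesin and described above, is counted among the 29 and has the largest measured fall of the list. By more than 2-fold, 16 were lower (55.2%, against 2.65% of all rows), and the median difference was -1.04. *PRC1*, which bundles midzone microtubules and recruits *KIF4A*, had 4.62 to 4.78 in the LOL arrays and 5.93 to 6.30 in the NOL arrays (log2 difference -1.43, adjusted p = 1.7e-06). *RACGAP1*, the partner of *KIF23* in centralspindlin, and *ECT2*, which both activate the contractile ring, were at -0.79 and -1.16 (adjusted p = 1.4e-05 and 7.1e-06). *CIT*, the citron kinase that binds *KIF14*, was at -1.46 (adjusted p = 3.0e-07), although *KIF14* itself did not pass. *AURKB*, the kinase that *KIF20A* moves to the midzone, was at -0.68 (adjusted p = 8.2e-05). The exception was *NUMA1*, a spindle pole protein that also belongs to the nucleus between divisions. It had 6.71 to 6.83 at LOL and 6.24 to 6.47 at NOL (log2 difference 0.41, adjusted p = 6.7e-04).

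Of 20 light chains and cargo adaptors of the transport motors, 3 were lower (15%) and 4 were higher (20%), near the 20.5% of all rows in each direction. The other 13 did not pass, and the list had a median difference of -0.024. *KLC2*, a light chain of kinesin-1, changed most, with 5.52, 5.43, 5.46 and 5.78 in the LOL arrays, against 6.57, 6.64, 6.65 and 6.82 in the NOL arrays. It was 2.18-fold lower (log2 SE 0.091, adjusted p = 6.1e-06 by limma), beside the 1.37-fold of its heavy chain *KIF5B*. The other light chains *KLC1*, *KLC3* and *KLC4* had differences of -0.16, 0.27 and 0.25, of which *KLC4* passed (adjusted p = 0.0221) but not without LOL 2 or NOL 3 (adjusted p = 0.061 and 0.057). *SPAG9*, a scaffold that links kinesin-1 to JNK signaling, had 7.21 to 7.38 at LOL and 6.52 to 6.63 at NOL (1.66-fold higher, adjusted p = 8.7e-06). The mitochondrial adaptors *TRAK1* and *TRAK2* moved in opposite directions, at 0.36 and -0.28 (adjusted p = 0.0031 and 0.0095). *MAPK8IP3* (0.32, adjusted p = 0.0243) and *PLEKHM2* (-0.19, adjusted p = 0.0476) also passed. Without 1 array the call of *MAPK8IP3* was lost for LOL 3, LOL 4 or NOL 4 (adjusted p up to 0.062). That of *PLEKHM2* was lost for LOL 1, LOL 2, LOL 4, NOL 2, NOL 3 or NOL 4 (adjusted p up to 0.12). Quantile normalization and the replicate block lost *PLEKHM2* (adjusted p = 0.155 and 0.0565), and analysis of variance lost *MAPK8IP3* (0.0594). Median centring lost *MAPK8IP3* and *KLC4* (adjusted p = 0.0622 and 0.0952). *CLSTN1* and *KIDINS220*, cargo-binding membrane proteins, did not pass, at -0.0050 and -0.043.

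Cytoplasmic dynein runs opposite to most kinesins, with dynactin as its activator. Of 29 of their genes and regulators, 8 were lower (27.6%) and 7 were higher (24.1%), against 20.5% of all rows in each direction. The other 14 did not pass, and the list had a median difference of 0.033. The lower genes past 2-fold were *DCTN5* (log2 difference -1.04), *NDE1* (-1.22) and *SPDL1* (at least 2.96-fold, measured log2 difference -1.57), of which the last 2 are known for work at kinetochores. The dynactin subunit *DCTN6* was 2.37-fold higher, at 9.55 to 9.73 in the LOL arrays and 8.32 to 8.50 in the NOL arrays (adjusted p = 4.5e-07). *DYNLT1* and *DCTN4* did not pass, at 0.043 and 0.11 (adjusted p = 0.59 and 0.18). Of 15 tubulin genes, 4 were lower (26.7%) and 3 were higher (20%), against the same 20.5%, with a median of 0.020. *TUBA1B*, *TUBB4B*, *TUBG1* and *TUBD1* were at -1.01, -0.95, -0.81 and -0.35, and *TUBA1A*, *TUBA4A* and *TUBA8* were at 0.37, 0.63 and 0.36. Many tubulin genes are near-identical in sequence, so these values are uncertain for single genes. The calls of *TUBD1* and *TUBA8* did not hold without 1 array in 6 and 2 of 8 fits (adjusted p up to 0.0763 and 0.0572). Analysis of variance lost them too (adjusted p = 0.078 and 0.056), and quantile normalization lost *TUBA1A* (0.103). *TUBB6* did not pass, at 0.020. *TUBB2B* did not pass either, at 0.26 (adjusted p = 0.0731), but did with trended moderation (0.0427), the filter on low rows (0.037), the replicate block (0.0377) and without NOL 3 (0.0279).

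**Figure D4:**
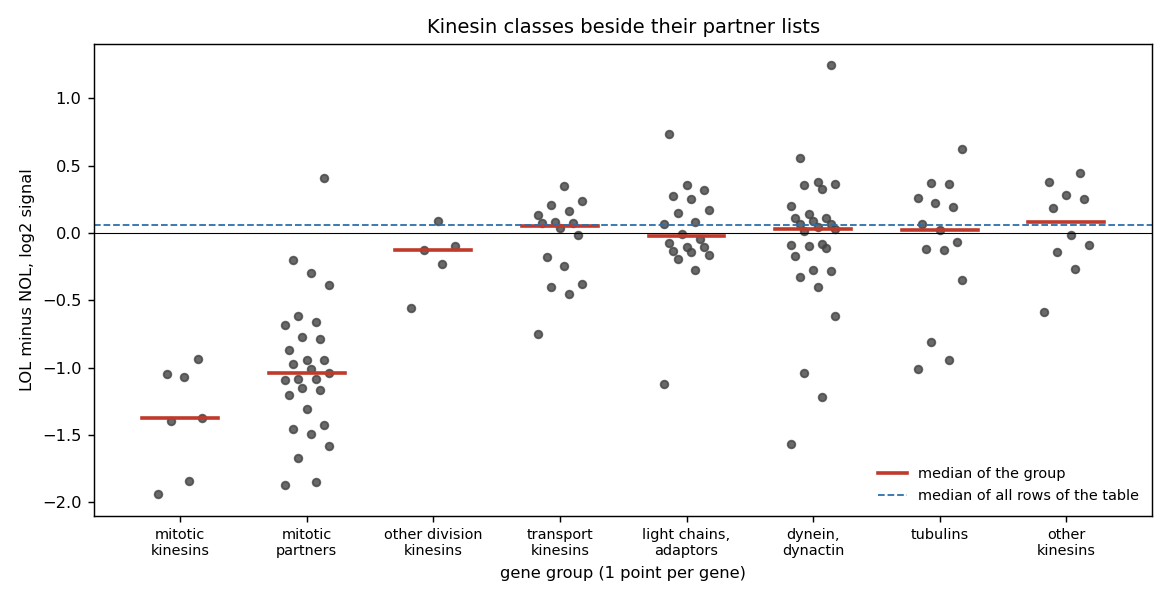
LOL minus NOL difference of each gene on the log2 scale for the kinesin classes and the lists of their partners, with the median of each group as a red line and that of all rows, 0.060, as a dashed line. The mitotic kinesins and their mitotic partners have medians of -1.38 and -1.04, whereas the other groups have medians between -0.12 and 0.083. The mitotic partners include *CENPE*, itself a kinesin.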

How the data were processed

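Total RNA of 4 LOL and 4 NOL samples of bovine granulosa cells was measured on GeneChip Bovine Gene 1.0 ST arrays, 1 colour and 1 array per sample. The deposited log2 values were made by the authors with robust multichip averaging (version not given in the sources used here), which removes background, normalizes between arrays and summarises probes. Nothing further was applied, and probe-level files were not used. The values run from 0.08 to 12.42. Arrays have no counting depth, so the number of arrays limits the precision. The oxygen level in each title set the group.

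All 24415 rows were compared with limma 3.58.1 in R 4.3.3 (lmFit and eBayes, 2 groups, two-sided), with Benjamini-Hochberg adjustment over all rows, and the method was tested on simulated data. Gene names come from the platform annotation, which gives 1 symbol to 18550 rows, several to 595 and none to 5270. Of the 38 kinesin symbols, 34 matched a RefSeq gene of the same symbol through their Entrez ID. The symbols *KIF1B*, *KIF21B* and *KIF25* carry no such ID, and that of *KIF26B* was not found. Where a list gene had several rows, the row with the highest mean was used.

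All kinesins are named. Every array is given for the mitotic kinesins, members past 2-fold and the 2 transport and 2 other members with the highest signal. Of each list, the 2 genes with the smallest adjusted p and up to 2 strong genes that did not pass are named. For marker lists counts and signals of the list are given, and genes are named for the endothelial and theca lists alone. The other list genes, the arrays printed beyond this rule and the log2 signal of 4 were chosen after values were seen. The members and lists were chosen with earlier results of these data known. The alternatives were analysis of variance as in the methods, trend and robust moderation, median centring, quantile normalization, a filter on rows under a mean of 4, a replicate block, array weights, a test against 1.5-fold (treat) and leaving out each array.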

Additional observations from a re-analysis of the deposited data

Results flagged for a closer look

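In 10 of 144 groups of 4 arrays checked, 1 array lay far from the other 3 by Dixon's test, and about 1 in 20 groups does so by chance. The kinesins had 4 such arrays in 76 groups, each of the 4 an LOL array. LOL 1 had 2.80 in *KIF14*, against 3.39 to 3.43 in the other LOL arrays. LOL 3 had 6.12 in *KIF13B* (others 5.94 to 5.97), 4.99 in *KIF27* (others 5.48 to 5.52) and 5.14 in *KIF19* (others 4.95 to 4.98). None of the 7 mitotic kinesins had such an array. Among partner genes, LOL 3 had 5.90 in *KLC1*, LOL 4 had 1.89 in *SPDL1*, LOL 2 had 8.24 in *TUBB2B* and LOL 1 had 9.08 in *DCTN4*. NOL 4 had 8.90 in *DCTN4*, and NOL 2 had 3.34 in *TUBA1A*.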

How the results depend on the processing

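All 7 mitotic kinesins were lower in each fit that held them, with log2 differences of -2.01 to -1.85 for *KIF11* and -1.02 to -0.81 for *KIF15*, and the filter on low rows removed *KIF2C* and *KIF15*. With the replicate numbers as a block, 15 kinesins were lower instead of 16, since *KIF3A* was lost (adjusted p = 0.0811), and 4 were higher as before. Same-numbered arrays deviated with correlations of -0.027, 0.018, 0.11 and 0.025, and the value of 0.11 (LOL 3 with NOL 3) was the highest of all pairs. With 4 arrays per group these values cannot decide whether the numbers pair the samples, and the labels do not say. Without 1 array, 13 to 15 kinesins were lower and 3 to 5 higher, and 5 or 6 fell by more than 2-fold. Against a fold of 1.5, treat called 6 lower and none higher, so the other kinesins, *KIF15* (adjusted p = 0.113) and *KIF1C* (0.314) among them, did not pass it. Each kinesin has 1 row, so the mean over rows could not be tried.

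The median of the transport kinesins, 0.054, was -0.011 with median centring, 0.013 with quantile normalization, -0.071 without rows under 4 and 0.012 to 0.075 without 1 array. The number of higher transport kinesins was 2 with quantile normalization, 2 without rows under 4 and 1 to 2 without 1 array, against 1. The median of all rows, 0.06, was -0.005 with median centring, 0.022 with quantile normalization and -0.025 without rows under 4. Median centring shifts all rows by the same amount. For the other changes the cause was not tested. Genes that did not pass turned sign as follows. Under quantile normalization *KIF17* was at -0.0125, *KIF2B* at -0.011 and *CLSTN1* at 0.015. Under median centring *KIFC2* was at -0.030, *DYNLT1* at -0.0225 and *TUBB6* at -0.045. Without 1 array *KIF14* reached 0.029 (from -0.18), *KIF5A* 0.0042 (from -0.0325), *KIF7* 0.032 (from -0.075), *KIFC2* -0.016 (to 0.084), *CLSTN1* 0.026 (from -0.074), *KIDINS220* 0.0050 (from -0.085) and *TUBB6* -0.0225 (to 0.064). Over the 15 alternatives other than treat, 515 values of the 38 kinesins kept direction and side of the threshold, 26 lost the call, 5 gained it and 11 turned sign.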
